A study of Mus musculus with 12 samples.

Results

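The nuclear-encoded subunits of the mitochondrial respiratory chain were followed in sorted nephron progenitors of fetal mouse kidneys. Members were chosen by gene name, as the numbered Nduf, Sdh, Uqcr, Cox4 to Cox8 and Atp5 genes, without the Ndufaf assembly factors and without pseudogene names ending in -ps. This gave 91 entries of the 49164 with counts. By name, 42 were placed in complex I, 4 in complex II, 8 in complex III, 19 in complex IV and 18 in complex V. Ndufa4, since assigned to complex IV, and its paralogue Ndufa4l2 are thus counted in complex I. Of the 91 entries, 79 passed the filter on low counts and were tested (37, 4, 8, 13 and 17 by complex) among 17697 genes in all.

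The libraries came from 12 litters of wild-type CD1 dams mated with Tg(Six2-EGFP/cre) males, collected at E17.5, late in gestation. All sorted cells were therefore heterozygous carriers of the transgene, in which Six2 regulatory sequence drives EGFP and Cre in the cap mesenchyme, and the GFP-positive cells of a litter were pooled. The 4 normal litters had dams on a control diet, and the other dams received a ketogenic diet or a control diet with added β-hydroxybutyrate from conception. The titles and the treatment fields of the labels contradict each other on which treated arm had which regimen, so K (titled as ketogenic, 4 litters) and BHB (titled as β-hydroxybutyrate, 4 litters) name sets of libraries and no regimen. Library totals ran from 7532784 to 12276119 counts. Levels are CPM, counts scaled to a common library total with TMM factors, and differences are log2 differences ± SE from edgeR's quasi-likelihood test, with p-values adjusted by Benjamini-Hochberg over all genes tested.

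The respiratory chain passes electrons from NADH (complex I) or succinate (complex II) through complex III to oxygen at complex IV, and complex V uses the proton gradient that results to make ATP. Most subunits are encoded in the nucleus, while a core of complexes I, III, IV and V is encoded in mitochondrial DNA, so both genomes supply each of those assemblies. Several complex IV subunits exist as alternative isoforms used in muscle, testis or hypoxic tissue. Nephron progenitors are known to rely strongly on glycolysis, and mature tubule cells carry many mitochondria.

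Nuclear respiratory genes are known to share promoter elements for NRF1, GABP (an ETS factor), the estrogen-related receptors and YY1. The 250 bases before the start of the gene (RefSeq, GRCm38.p6, 5′ to 3′ on the strand the table gives) are shown for 4 members whose values stand out further on: Ndufc2 and Atp5k, whose K litters all lay above the normal ones, and Atp5g2 and Atp5g3, which encode the same mature protein and had unequal differences. Capitals mark the letters CGCATGCG (NRF1 core) or TCAAGGTCA on either strand (estrogen-related receptor element).
Ndufc2 (chr7:97399753-97400002, plus strand): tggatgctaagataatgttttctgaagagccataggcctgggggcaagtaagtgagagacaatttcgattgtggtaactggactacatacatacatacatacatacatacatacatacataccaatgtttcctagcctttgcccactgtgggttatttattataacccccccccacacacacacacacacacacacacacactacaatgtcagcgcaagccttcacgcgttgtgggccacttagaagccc
Atp5k (chr5:108434400-108434649, minus strand): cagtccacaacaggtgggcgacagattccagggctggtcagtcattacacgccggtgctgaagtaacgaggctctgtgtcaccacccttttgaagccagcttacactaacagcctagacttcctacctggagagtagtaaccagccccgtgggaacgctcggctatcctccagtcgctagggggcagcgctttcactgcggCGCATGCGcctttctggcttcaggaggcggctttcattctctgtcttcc
Atp5g2 (chr15:102671048-102671297, minus strand): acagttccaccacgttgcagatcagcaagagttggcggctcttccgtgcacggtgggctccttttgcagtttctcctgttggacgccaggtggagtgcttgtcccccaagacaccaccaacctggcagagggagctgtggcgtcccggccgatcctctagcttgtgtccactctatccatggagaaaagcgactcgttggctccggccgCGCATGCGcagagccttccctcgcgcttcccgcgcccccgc
Atp5g3 (chr2:73911327-73911576, minus strand): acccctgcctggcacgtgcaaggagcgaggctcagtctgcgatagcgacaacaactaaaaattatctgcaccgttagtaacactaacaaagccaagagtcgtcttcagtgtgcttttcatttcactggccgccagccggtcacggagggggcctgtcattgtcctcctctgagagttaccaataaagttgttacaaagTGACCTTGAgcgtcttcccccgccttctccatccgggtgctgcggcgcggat
The Atp5k and Atp5g2 windows each hold 1 NRF1 core, and the Atp5g3 window holds 1 estrogen-related receptor element on the opposite strand. The Ndufc2 window holds none of the letters searched. The windows of Ndufa12 and Atp5md, whose K litters also all lay above the normal ones, are not shown and hold none either. Of 71 promoter entries of tested members, 9.86% held CGCATGCG, against 1.54% of all 32817 entries of the same length. The ETS letters CCGGAAG, searched on both strands, were found in 16.9% of the member entries and 6.9% of all. The element TCAAGGTCA was found in 1.41% against 0.387%, and the YY1 letters AAGATGGCG in 1.41% against 0.603%. The motifs searched do not contain one another. These shares describe letters only; 69 of the 90 member symbols had an entry. Bases just after the start were found in the GENCODE transcript on the stated strand for 55 of 66 members checked and on the opposite strand for 0. The other 11, Atp5g2 among them, matched on neither, so their strand and start were not checked this way.

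In the normal litters the subunits were expressed over a wide range. Per kilobase of transcript (GENCODE M21 lengths), the highest levels were those of Atp5b, the catalytic β subunit of ATP synthase, at 384 ± 20.3 CPM per kb (SD, n = 4), and of Cox6c at 310 ± 9.53. Atp5a1, the α subunit, followed at 309 ± 9.19, within the spread of Cox6c, and Cox4i1 at 228 ± 8.21. Core subunits of the other complexes were lower, with Uqcrc1 at 98.1 ± 6.45 and the flavoprotein Sdha at 84.1 ± 3.95. The members that failed the filter were isoforms or extra copies: Ndufa11b, Ndufa4l2, Ndufb11b, Ndufb4c, Ndufs6b, Cox6a2, Cox6c2, Cox7a1, Cox7b2, Cox8b, Cox8c and an additional Atp5o entry with no count.

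No subunit passed an adjusted p of 0.05 in any comparison by edgeR, and neither did any other gene, so 0% of all genes tested were called in each. In K minus normal, 77 of 79 members were higher and 2 lower, against 50.6% of all genes higher. The median log2 difference of the members was 0.34 (a fold of 1.27), against 0.0046 over all genes tested. At an unadjusted p under 0.05, 21 members (26.6%) were higher and 0 lower, against 12.1% and 7.68% of all genes; the smallest adjusted p of a member was 0.221. Counted in either direction, the 21 (26.6%, against 19.8% of all genes) became 63 without K 2 (77.8% against 28.3%). They became 45 without K 1 (57% against 24%), 5 without K 3 (6.25% against 10.4%) and 8 without K 4 (10% against 9.56%). Without normal 1 the count was 11 (13.6% against 13.1%), and without normal 2 or normal 3 it was 10 (12.3%, against 10.9% and 17.7%). In a fit of the K and normal litters alone it was 8 (10.1%, against 19.6% of all genes in either direction), and with the replicate block in all 12 libraries 10 (12.7%, against 15.4%), so the members' share was then below that of all genes. With the marker covariate the count was 5 (6.33%, against 6.47% of all genes), where 64 of the 79 members were lower. Without K 3, K 4, BHB 1 and BHB 2 it was also 5 (6.33%, against 8.56%), where 54 were lower. The K and normal litters did not overlap for 4 members (5.06%, against 4.87% of all genes), namely Ndufa12, Ndufc2, Atp5k and Atp5md, and no member lay below in all K litters (5.26% of all genes did). With the replicate number as a block in a fit of K and normal only, 391 genes (2.33%) passed the threshold, and still 0 members, with a smallest adjusted p of 0.0757. DESeq2 called 216 genes (1.34%) in this comparison, and 1 member, Ndufc2 (adjusted p = 0.0406).

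The members were highest in 2 litters of the K arm, K 3 and K 4. The mean log2 deviation of the members from the normal litters was 0.034 in K 1, -0.105 in K 2, 0.755 in K 3 and 0.436 in K 4. It was 0.237, 0.159, 0.039 and 0.073 in BHB 1 to 4, and the normal litters themselves ran from -0.035 to 0.073. K 3 was the highest of the 12 litters for 75 of 79 members, against 19.1% of all genes; the exceptions were Ndufa7, Ndufb2, Cox4i2 and Cox6b2. In K 3 and K 4, 76 and 73 members lay above all 4 normal litters, against 35.3% and 35.1% of all genes, while in K 1 and K 2 it was 19 and 6 members (24.1% and 7.59%, against 21.9% and 21.5%). BHB 1 and BHB 2 had 57 and 46 members above all normal litters (32.6% and 29.2% of all genes), and BHB 3 and BHB 4 had 20 and 26 (18.5% and 27.9%). K 2 was the lowest litter for 37 members, against 6.98% of all genes, so the K litters held both ends of the range. The median SD of a member on the log2 scale was 0.41 in K, 0.12 in BHB and 0.095 in normal, while over all genes it was 0.26, 0.22 and 0.17.

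**Figure D1:**
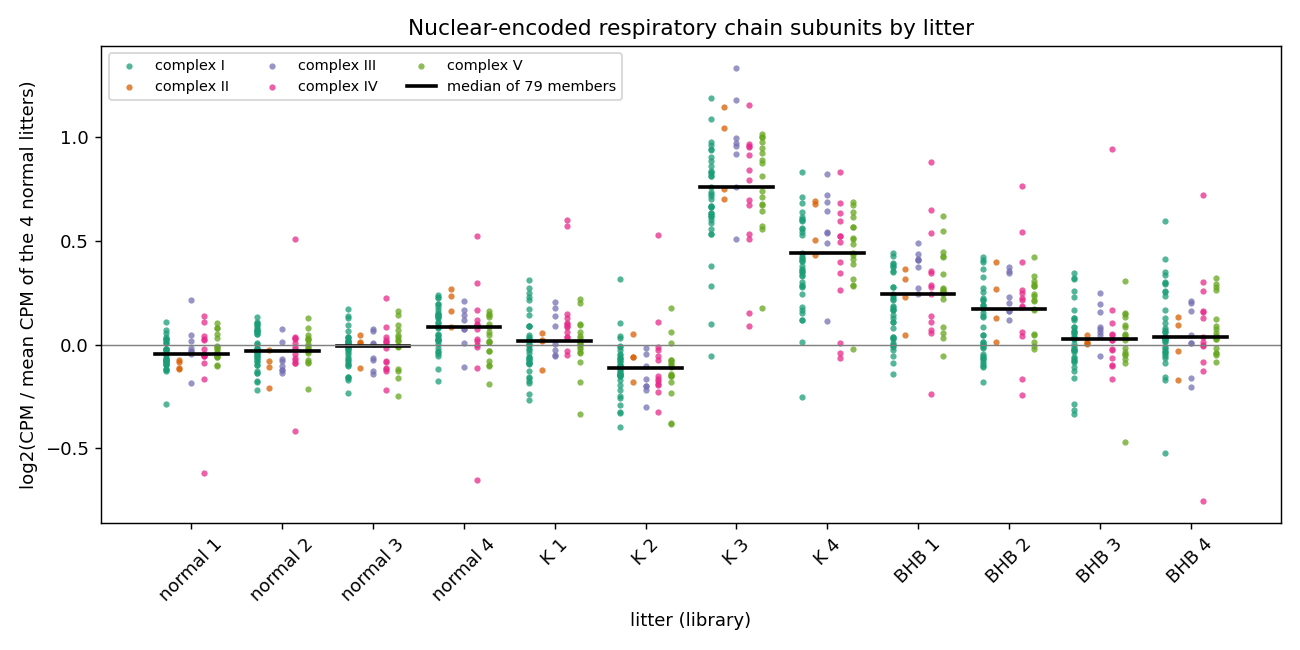
Each point is 1 of the 79 tested subunits in 1 litter, as the log2 ratio of its CPM to the mean of the 4 normal litters; colours give the complex and black bars the median over members. K 3 and K 4 stand highest and BHB 1 and BHB 2 next, in all 5 complexes; K 2 is lowest in all but complex II, where normal 1 and normal 2 are lower.

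Marker genes of cell types outside the cap mesenchyme, averaged over lists, peaked in the same 4 litters (K 3, K 4, BHB 1, BHB 2), but single lists differed. The mean log2 CPM of proximal tubule, distal tubule, podocyte, ureteric, endothelial and leukocyte markers was 1.98 to 3.04 in the normal litters. It was 3.32, 3.00, 5.01 and 4.92 in K 1 to 4 and 4.65, 4.08, 3.45 and 3.20 in BHB 1 to 4. In K minus normal, 11 of 12 proximal tubule, 10 of 10 distal nephron (distal tubule, loop of Henle), 9 of 10 podocyte, 9 of 9 ureteric, 10 of 10 endothelial, 8 of 8 leukocyte, 5 of 8 stromal and 5 of 6 erythroid markers were higher. Summed CPM of the distal tubule list was 181 to 685 in normal, 331 to 3295 in K and 245 to 1811 in BHB, and that of the proximal tubule list 147 to 1223, 361 to 3078 and 628 to 1423. The other sums were, in the same order, 381 to 479, 491 to 842 and 361 to 1182 for podocyte, 154 to 227, 166 to 781 and 120 to 649 for ureteric, 18.2 to 35.3, 65.5 to 240 and 26.6 to 350 for endothelial, and 26.6 to 40.9, 42.2 to 74.9 and 51.3 to 187 for leukocyte markers. For stroma they were 251 to 384, 317 to 432 and 303 to 708, and for erythroid markers 76.4 to 141, 55.3 to 209 and 96.9 to 298. Those 4 litters were the top 4 for the distal tubule, podocyte, ureteric and endothelial lists. The leukocyte list was highest in BHB 4 (mean log2 CPM 3.84, against 1.37 in K 3), and the proximal tubule list was higher in normal 4, BHB 3 and BHB 4 (5.01, 4.97 and 5.02) than in BHB 1 and BHB 2 (4.85 and 4.14). The stromal list was higher in K 1 (3.84) than in K 3 and K 4 (3.63 and 3.55), and the erythroid list lower in BHB 2 (3.07) than in normal 1 and normal 3. The part of these cells in the members' levels was not tested. No listed marker was at 0 in every litter of an arm. The cap mesenchyme markers that define the sorted cells were present in every litter, Six2 itself at 379 to 510 CPM in normal, 228 to 441 in K and 258 to 449 in BHB, and 13 of 14 were lower in K minus normal (median -0.39).

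Without K 3, K 4, BHB 1 and BHB 2, the libraries highest on the first principal component (50.1% of variance) and on these markers, the median of the members in K minus normal was -0.041 with 25 higher and 54 lower. These 4 libraries, chosen after values were seen, also had the highest mean deviations of the members (0.755, 0.436, 0.237 and 0.159). Lower differences from normal without them therefore follow from that choice, and no cause was tested. A fit with the marker score as a covariate gave a median of -0.12, with 15 higher. Of the treated litters, only K 2 (3.00) had a score within the normal range (1.98 to 3.04). Score and treatment thus overlap little, and this fit cannot separate them, here or in the other contrasts with normal. Without K 3 alone the median was 0.16, with 70 members higher. In pooled sorted cells, fewer cells of a type and less RNA per cell cannot be told apart.

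**Figure D2:**
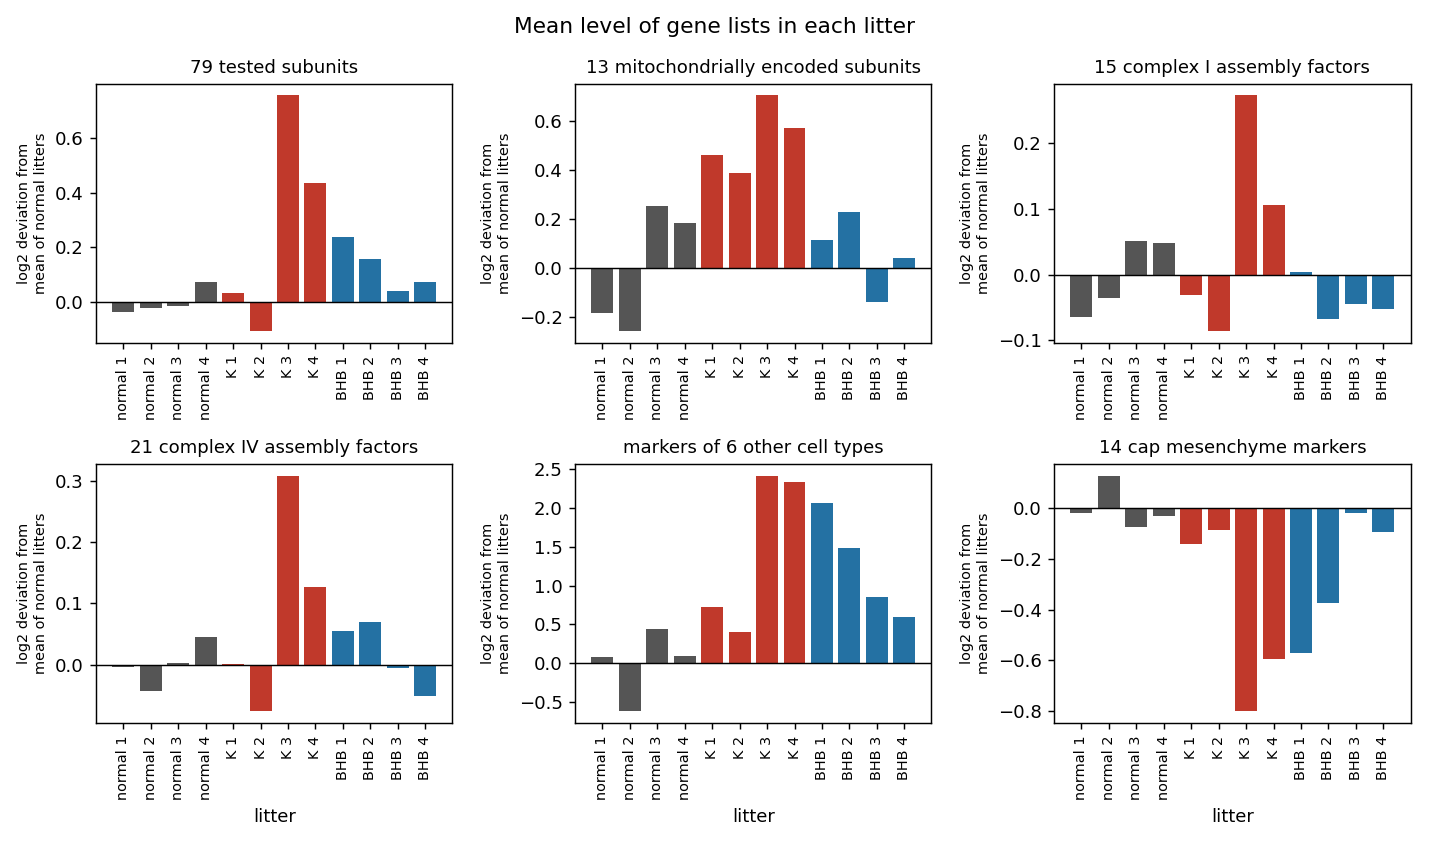
Bars give, per litter, the mean log2 level of a gene list minus its mean over the 4 normal litters, for the 79 tested subunits, mitochondrially encoded subunits, assembly factors of complexes I and IV, markers of other cell types and cap mesenchyme markers; vertical scales differ between panels. K 3, K 4, BHB 1 and BHB 2 are highest on the markers of other cell types and lowest on the cap mesenchyme markers.

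In BHB minus normal, 66 of 79 members were higher and 13 lower (52.8% of all genes were higher), with a median log2 difference of 0.13 (a fold of 1.09) against 0.016 over all genes. At an unadjusted p under 0.05, 3 members (3.8%) were higher and 0 lower, against 6.79% and 5.02% of all genes, and the smallest adjusted p of a member was 0.417. Counted in either direction, the 3 (3.8%, against 11.8% of all genes) became 8 without K 3 and 5 without K 2. They became 2 without normal 1, normal 2, normal 4, K 4, BHB 1 or BHB 2, and 1 without normal 3, BHB 3 or BHB 4. In each of these the members' share (1.23% to 10%) was below that of all genes (6.34% to 16.5%). In a fit of the BHB and normal litters alone the count was 19 (24.1%, against 16.6% of all genes in either direction), which puts the members above all genes. It was 31 with the marker covariate (39.2%, against 10.6% of all genes), where 73 of the 79 members were lower. Without the 4 libraries it was 8 (10.1%, against 9.93%), and with no filter on low counts 5 (5.62%, against 8.32%). The BHB litters lay above all normal ones for 12 members (15.2%, against 3.95% of all genes). These were Ndufa1, Ndufa2, Ndufb10, Ndufv3, Uqcr11, Uqcrh, Cox4i1, Cox4i2, Cox6a1, Atp5g3, Atp5k and Atp5o. Ndufb1 was the only member below all normal litters (1.27%, against 4.67%). Without the 4 libraries named above the median was 0.043, and a fit with the marker score as a covariate gave -0.23.

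Between the treated arms, 73 of 79 members were higher in K than in BHB (52.4% of all genes), with a median of 0.19 that was 0.0020 without K 3, 0.29 without K 1, 0.31 without K 2 and -0.086 without the 4 libraries. With the marker covariate it was 0.095, with 63 higher and 16 lower. At an unadjusted p under 0.05, 10 members were higher in K (12.7%, against 3.72% of all genes) and 1 lower (1.27%, against 4.51%). These 11 (13.9%, against 8.23% of all genes in either direction) became 4 without K 3 (5% against 7.63%). They became 17 without K 1 (21.5% against 8.62%) and 36 without K 2 (44.4% against 10.4%). Without K 4 or BHB 3 they were 6 (7.5% and 7.41%, against 6.77% and 7.15%), and without BHB 4 they were 7 (8.64% against 4.94%). A fit of these arms alone gave 6 (7.59% against 5.58%) and the replicate block 7 (8.86% against 6.84%). The litters did not overlap for Ndufc2 and Cox6b2, higher in K (2.53%, against 1.76%), and for Cox4i2, lower in K (1.27%, against 2.31%). Both treated arms against normal, a contrast that does not depend on the regimen of either, had 76 members higher (51.1% of all genes), a median of 0.24 and 8 members higher at an unadjusted p under 0.05 (10.1%, against 11% of all genes), with 0 lower against 7.84%. In this contrast only Atp5k had all 8 treated litters above the normal ones (1.27%, against 1.03%). The median of the members in this contrast was 0.15 without K 3 and 0.0036 without the 4 libraries, and a fit with the marker covariate gave -0.19. Counted in either direction, the 8 (10.1%, against 18.8% of all genes) became 2 without normal 1 and 3 without normal 3 or K 4. They became 4 without normal 2, BHB 2 or BHB 4, and 5 without BHB 1 or with the replicate block. In each of these the members' share (2.47% to 6.33%) was below that of all genes (8.46% to 19.9%). They became 23 without K 1 (29.1% against 22.4%) and 42 without K 2 (51.9% against 26.7%). Without the 4 libraries they were 3 (3.8% against 6.42%). With the marker covariate they were 16 (20.3% against 7.54%), where 69 of the 79 members were lower. In the test for any difference among arms, 9 members (11.4%) had an unadjusted p under 0.05, against 14.2% of all genes. The 9 became 5 without normal 1, normal 3, K 3 or K 4 (6.17% to 6.25%, against 9.48% to 11.2% of all genes). They became 25 without K 1 (31.6% against 17.1%) and 56 without K 2 (69.1% against 22.6%). By DESeq2 they were 15 (17.9% against 14.1%) and with no filter on low counts 17 (19.1% against 8.66%). With the marker covariate they were 24 (30.4% against 12.6%). Except for the counts of 5, the members' share under these settings was thus above that of all genes.

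**Figure D3:**
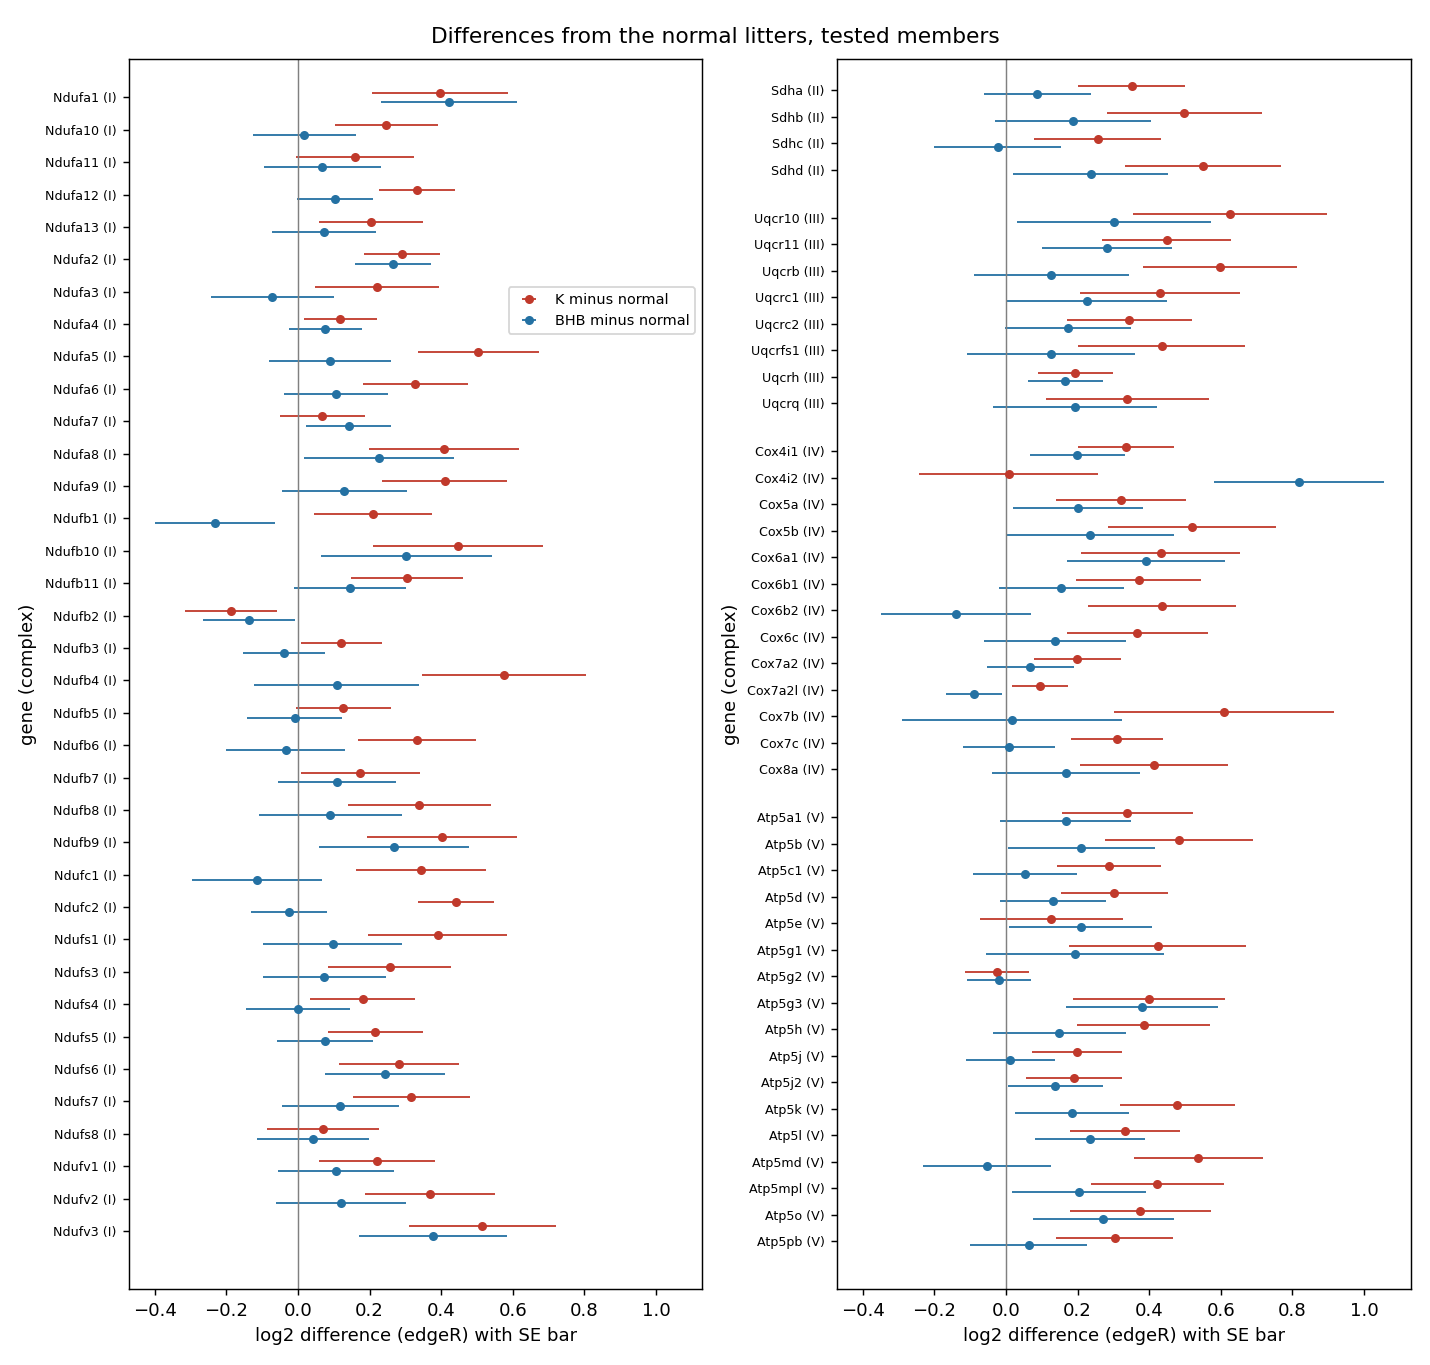
Points give the log2 difference from the normal litters of tested subunits (all but 1 of the 79) in K and BHB and bars the SE, by complex. Most K values lie right of 0, while Cox4i2 has the largest BHB difference (0.82) and almost none in K.

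Complex I takes electrons from NADH through a flavin and a row of iron-sulfur clusters held by its core subunits. All 7 nuclear core subunits were higher in K minus normal (median 0.32, from 0.07 to 0.39), with 0 at an unadjusted p under 0.05. Of the 30 other tested complex I members, 29 were higher (median 0.30), 8 of them at an unadjusted p under 0.05. Over all genes, 12.1% were higher at that p, and the members' counts at it changed with the setting, as given above. In BHB minus normal 7 of 7 and 22 of 30 were higher, with medians of 0.11 and 0.090. Ndufs1, a large iron-sulfur subunit, had 105.9, 98.1, 124.6 and 114.2 CPM in normal 1 to 4, 110.1, 100.6, 197.7 and 172.1 in K 1 to 4, and 134.3, 126.2, 104.4 and 108.7 in BHB 1 to 4. Its K 1 and K 2 litters lay among the normal ones and its K 3 and K 4 litters above them (K minus normal 0.39 ± 0.19). Ndufv1, which binds NADH, had 92.5 to 95.9 CPM in normal, 92.5, 75.1, 146.1 and 124.3 in K, and 110.8, 103.5, 95.7 and 94.7 in BHB. Ndufv2, its iron-sulfur partner, had 79.2 to 95.7 in normal, 83.1, 84.9, 161.8 and 117.6 in K, and 86.9 to 104.9 in BHB. K 3 and K 4 were again the only K litters above the normal range. The subunits Ndufs3, Ndufs7 and Ndufs8, in the arm that leads to the quinone site, had log2 differences of 0.26, 0.32 and 0.07 in K and of 0.07, 0.12 and 0.04 in BHB. Ndufs8 was thus the flattest core subunit, with 38.0 to 43.0 CPM in normal and 34.0, 32.0, 59.2 and 43.6 in K.

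Ndufc2, a supernumerary subunit of the membrane arm, separated the K arm from both others. It had 26.5, 27.7, 28.2 and 29.8 CPM in normal, 34.9, 34.9, 47.4 and 35.3 in K and 27.8, 28.1, 25.1 and 29.2 in BHB. Every K litter lay above every normal and BHB litter, K 1 and K 2 included. It had the smallest p of the complex in the test for any arm. The difference was 0.44 ± 0.11 against normal (adjusted p = 0.221) and 0.47 ± 0.11 against BHB (adjusted p = 0.53), and without the 4 libraries it was 0.32 and 0.37. Ndufc2 was the member that DESeq2 called, and it was also called in that tool's test for any arm (adjusted p = 0.0276), which called 0.395% of genes.

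Among the other complex I members, Ndufa12, which is added late in assembly, had 40.3 to 46.4 CPM in normal, 50.7, 46.9, 66.2 and 56.0 in K and 43.7 to 52.2 in BHB. Its K litters lay just above the normal ones (0.33 ± 0.11, adjusted p = 0.221). Ndufa1, a small accessory subunit of the membrane arm encoded on the X chromosome, had 10.1 to 12.2 CPM in normal, 13.4, 10.3, 22.0 and 14.6 in K, and 14.8, 15.1, 14.3 and 17.3 in BHB (BHB minus normal 0.42 ± 0.19). Ndufa2, an accessory subunit of the matrix arm, had 31.5 to 34.6 in normal, 39.7, 32.4, 48.3 and 43.0 in K and 38.1 to 42.4 in BHB (BHB minus normal 0.27 ± 0.11). Ndufv3, an accessory of the NADH-binding module, had 38.2 to 47.4 in normal, 39.6, 42.7, 82.4 and 74.4 in K and 52.0 to 56.9 in BHB (BHB minus normal 0.38 ± 0.21). For these 3 genes each BHB litter was above each normal one, and without the 4 libraries the BHB differences were 0.46, 0.32 and 0.33.

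Ndufb1 and Ndufb2, accessory subunits of the membrane arm, had the lowest log2 differences of all members, Ndufb1 in BHB and Ndufb2 in K. Ndufb1 had 12.2 to 13.3 CPM in normal, 12.0, 12.7, 20.2 and 14.2 in K and 12.0, 12.2, 10.3 and 8.90 in BHB, so all BHB litters lay below the normal ones, BHB 2 by a margin lost in rounding. Its differences were -0.23 ± 0.17 in BHB (adjusted p = 0.52) and 0.21 ± 0.17 in K. Its exons overlap Cpsf2 on the opposite strand, which was itself -0.27 in BHB and -0.25 in K, and reads of the pair can be told apart only if counting used strand, a setting not given in the sources used here. Ndufb2 had 11.2 to 16.0 CPM in normal, 11.4 to 13.2 in K and 11.2 to 13.4 in BHB, and was the lowest member in K minus normal (-0.19 ± 0.13) with overlapping litters. It shares exon positions with Gm42420 on its own strand and Gm16272 on the other.

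Complex II oxidises succinate and has no mitochondrially encoded subunit. All 4 genes were higher in K minus normal (median 0.42) and 3 of 4 in BHB minus normal (median 0.14). Sdha had 231.9, 239.3, 245.7 and 258.9 CPM in normal, 254.0, 234.4, 410.0 and 346.0 in K and 286.3, 266.7, 245.1 and 238.7 in BHB. Only K 3 and K 4, BHB 1 and BHB 2 lay above all normal litters. The iron-sulfur subunit Sdhb had 53.9 to 73.3 in normal and 63.0, 59.7, 128.5 and 100.7 in K (0.50 ± 0.22). The membrane anchors Sdhc and Sdhd had 52.8 to 69.0 and 43.6 to 52.6 in normal, and 52.6, 50.6, 93.2, 77.1 and 47.8, 48.8, 103.9, 75.3 in K. Sdhd had the smallest p of the complex for any arm and a K difference of 0.55 ± 0.22 (adjusted p = 0.226), which was 0.048 without the 4 libraries.

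Complex III carries electrons from ubiquinol to cytochrome c, and 8 of 8 members were higher in both K (median 0.43) and BHB (median 0.18). The core proteins Uqcrc1 and Uqcrc2 had 150.8 to 176.3 and 77.6 to 89.0 CPM in normal. In K 1 to 4 they had 156.5, 141.4, 323.2 and 253.0, and 89.8, 73.5, 142.9 and 122.6. In BHB 1 to 4 they had 214.8, 207.1, 169.1 and 167.6, and 112.2, 94.6, 89.1 and 84.8. Uqcrfs1, the Rieske iron-sulfur protein, had 76.1 to 91.2 in normal, 81.4, 71.0, 162.0 and 133.0 in K and 74.0 to 112.0 in BHB. In all 3 genes K 3 and K 4 were highest and BHB 1 came next. Uqcr10, a small accessory subunit, had the largest K difference of all members, 0.63 ± 0.27, from 17.9 to 22.5 CPM in normal and 19.3, 17.2, 48.7 and 34.1 in K, yet K 1 and K 2 were within or below the normal range. Without the 4 libraries its difference was -0.071. Uqcrb, an accessory subunit near the ubiquinone site, had the smallest p of the complex for any arm, with 42.5 to 55.9 in normal, 55.6, 47.8, 109.2 and 79.6 in K and 48.6 to 58.4 in BHB (K 0.60 ± 0.22). Uqcrh, the hinge protein, and Uqcr11 had all BHB litters above normal: 98.4 to 109.8 against 84.2 to 97.8 for Uqcrh, and 46.4 to 52.5 against 37.1 to 45.5 for Uqcr11.

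Complex IV, cytochrome c oxidase, reduces oxygen, and all 13 tested members were higher in K (median 0.37) and 11 of 13 in BHB (median 0.15). Cox5a and Cox5b, nuclear subunits on the matrix side, had 36.0 to 38.3 and 110.4 to 127.5 CPM in normal. In K they had 39.7, 33.1, 64.6 and 49.2, and 120.6, 103.1, 261.8 and 188.5 (log2 differences 0.32 and 0.52). Of the K litters, K 2 alone lay below the normal ones for both. The broadly expressed Cox6a1, Cox6b1, Cox7a2 and Cox8a had K differences of 0.43, 0.37, 0.20 and 0.41. Cox6a1 also had all BHB litters above normal, at 54.7 to 76.5 CPM against 47.3 to 51.3. Cox7b differed widely within every arm, with 72.2, 105.5, 129.8 and 136.2 CPM in normal, 164.7, 99.0, 215.3 and 197.5 in K and 122.0, 161.5, 99.1 and 65.8 in BHB. Cox7a2l, a factor that joins complexes III and IV into supercomplexes, differed little, with 75.7 to 87.6 CPM in normal, 79.5 to 91.0 in K and 69.2 to 85.2 in BHB (0.094 ± 0.078 in K and -0.089 ± 0.078 in BHB).

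Among the tissue isoforms of complex IV, Cox4i2 was the one that separated an arm. Cox4i1 is the common form of subunit 4, and Cox4i2 the form known from lung and induced by low oxygen. Cox4i2 had 1.42, 1.86, 1.13 and 0.835 CPM in normal, 1.41, 1.25, 1.40 and 1.25 in K and 2.41, 2.22, 2.52 and 2.16 in BHB. The 4 BHB litters lay above all 8 others. The difference was 0.82 ± 0.24 in BHB (adjusted p = 0.417) and 0.0076 ± 0.25 in K, and K minus BHB was -0.81 ± 0.24 (adjusted p = 0.53). Cox4i2 had the smallest p of the complex for any arm. Its BHB difference was 0.83 without the 4 libraries and 0.92 in the fit with the marker covariate. Both settings were chosen after values were seen, and the covariate fit cannot separate score from treatment. The gene had only 204 counts over the 12 libraries. Cox4i1 had 160.9 to 174.3 CPM in normal, 180.3, 167.0, 270.8 and 239.7 in K and 217.5, 197.3, 175.8 and 190.1 in BHB, with every BHB litter above normal (0.20 ± 0.13); its exons overlap Emc8 on the opposite strand. Per kilobase, Cox4i2 made up 0.781% ± 0.246 of both forms in normal, 0.653% ± 0.144 in K and 1.22% ± 0.155 in BHB (SD, n = 4), and its lowest BHB share, 1.12%, was above its highest normal share, 1.08%.

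Cox6b2, the isoform known from testis, had 4.43, 3.73, 4.60 and 7.16 CPM in normal, 7.55, 7.19, 7.08 and 5.01 in K and 4.22, 4.45, 4.64 and 4.70 in BHB. Its K litters lay above the BHB ones (K minus BHB 0.58 ± 0.21, adjusted p = 0.539) and overlapped the normal ones only through normal 4. It was the 1 member highest in K 1. Cox7a1, the muscle form of Cox7a2, was not tested; it had 0.660, 0, 0.260 and 0.835 CPM in normal, 1.01, 0.479, 2.90 and 2.40 in K and 0 to 0.707 in BHB. Ndufa4l2 is a paralogue of Ndufa4 known to be induced by hypoxia-inducible factor. It was not tested, and had 3.62 CPM in BHB 1 and at most 0.858 in the other 11 litters. Its exons overlap Shmt2 on the opposite strand, which had a mean of 61 CPM in normal. BHB 1 was also the highest litter for the stromal, podocyte, endothelial and erythroid marker lists. The part of either in the BHB 1 value was not tested. Ndufa4 itself, named for complex I and since assigned to complex IV, had 45.1 to 51.9 CPM in normal, 42.8 to 61.9 in K and 47.9 to 52.6 in BHB. The muscle isoforms Cox6a2 and Cox8b had 1 and 0 counts in all libraries together, and the testis isoforms Cox8c and Cox7b2 had 1 count and at most 0.283 CPM. For a gene with 0 counts, the limit of 3 counts in 122153253 allows up to 0.0246 CPM, for counting error only.

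**Figure D4:**
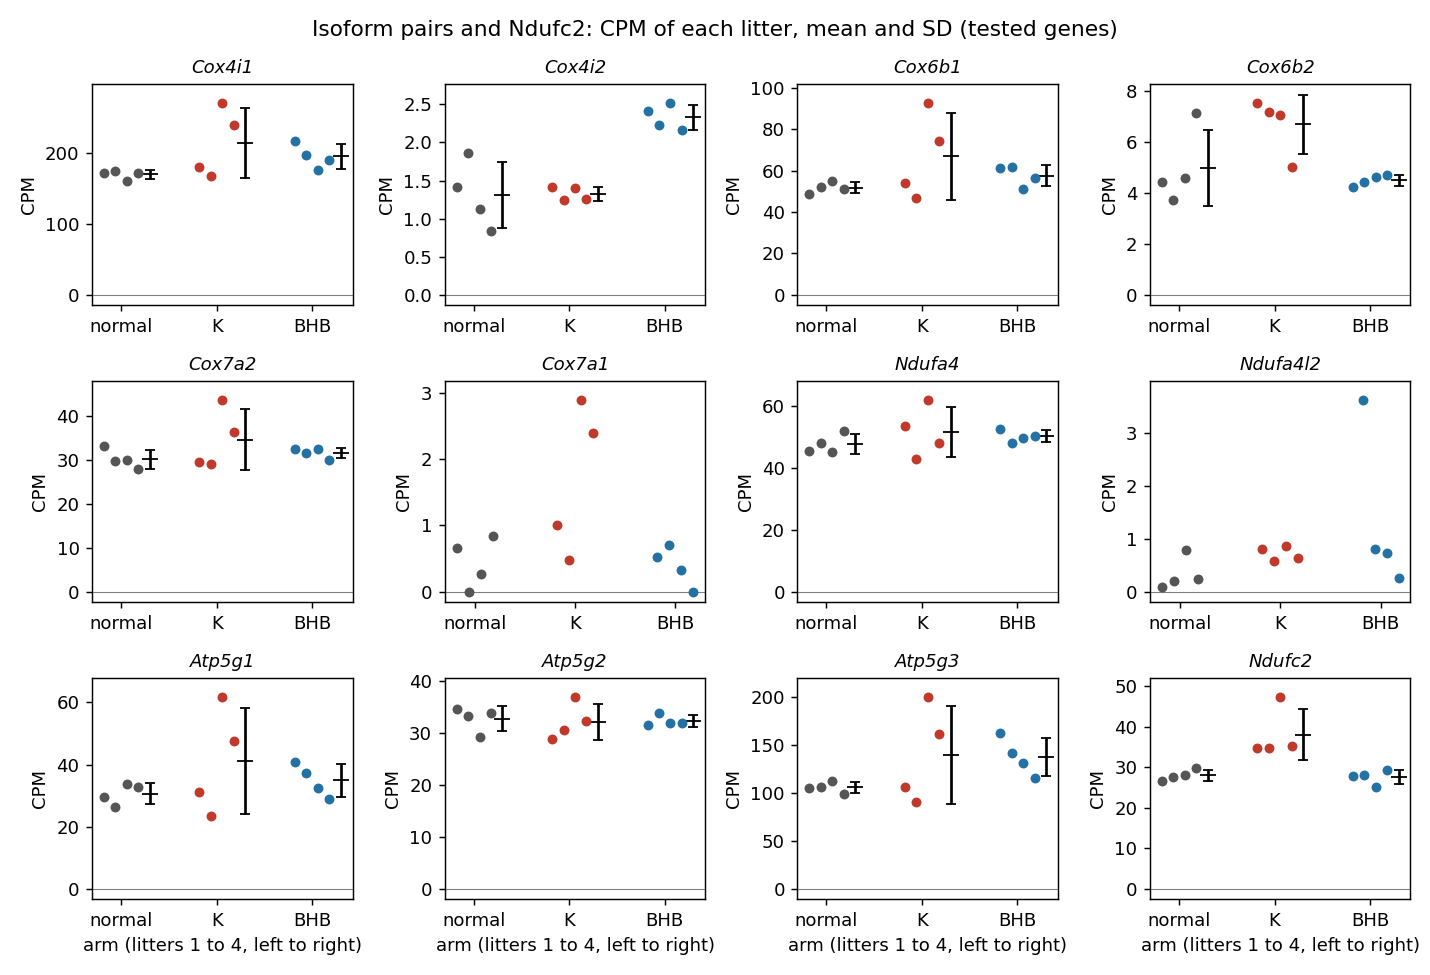
Points give the CPM of litters 1 to 4 of each arm for isoform groups of complexes IV and V, Ndufa4 and Ndufc2; bars give the mean and SD over 4 litters for tested genes. Cox4i2 is above 2.1 CPM in the BHB litters alone, Ndufc2 above 34 CPM in the K litters alone, and Ndufa4l2 stands out in BHB 1.

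Complex V, ATP synthase, has a catalytic head driven by a ring of c subunits in the membrane. Of 17 tested members, 16 were higher in K (median 0.34) and 15 in BHB (median 0.17). The head and central stalk (Atp5a1, Atp5b, Atp5c1, Atp5d, Atp5e) had 5 of 5 higher in K, with a median of 0.30, and the peripheral stalk (Atp5pb, Atp5h, Atp5j, Atp5o) 4 of 4, with a median of 0.34. The membrane accessory subunits (Atp5j2, Atp5k, Atp5l, Atp5md, Atp5mpl) had 5 of 5, with a median of 0.42. Atp5a1 had 749.9, 746.3, 758.4 and 795.8 CPM in normal, 740.9, 687.3, 1341 and 1089 in K and 965.7, 928.8, 775.7 and 753.6 in BHB. Atp5b had 716.0, 692.1, 754.2 and 779.6 in normal, 767.7, 689.9, 1473 and 1185 in K and 990.4, 909.5, 754.9 and 750.0 in BHB. For both, K 3, K 4, BHB 1 and BHB 2 were the only litters above the normal range, and the same 4 litters were the top 4 for 35 of 79 members (11.3% of all genes).

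The c subunit is made from 3 genes with the same mature protein, and these had unequal differences. Atp5g1 had 26.4 to 33.7 CPM in normal, 31.2, 23.6, 61.8 and 47.6 in K and 28.9 to 40.9 in BHB (K 0.42 ± 0.25). Atp5g3 had 98.8 to 112.9 in normal, 106.0, 90.2, 200.4 and 162.0 in K and 162.3, 141.9, 130.8 and 115.3 in BHB, with every BHB litter above normal (0.38 ± 0.21 in BHB and 0.40 ± 0.21 in K). Atp5g2 had 29.3 to 34.6 in normal, 28.9, 30.6, 37.0 and 32.3 in K and 31.5 to 34.0 in BHB (-0.026 ± 0.090 in K and -0.020 ± 0.090 in BHB). K 3 was still its highest litter, but by little. Per kilobase, Atp5g3 made up 54.1% ± 2.21 of the c-subunit transcripts in normal, 57.3% ± 3.06 in K and 59.2% ± 1.93 in BHB (SD, n = 4). Atp5g2 made up 27.2% ± 2.37, 22.8% ± 5.29 and 22.8% ± 2.55 in the same order. The lowest Atp5g3 share in BHB, 57.2%, was above the highest normal one, 56.2%. Whether the genes' differences were unequal was not tested.

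Atp5k, subunit e at the dimer interface, had 39.7, 41.8, 40.8 and 41.4 CPM in normal, 47.0, 42.6, 80.4 and 58.2 in K and 41.9, 47.5, 45.6 and 51.1 in BHB. All 8 treated litters lay above the normal ones, BHB 1 by the smallest margin (K 0.48 ± 0.16, adjusted p = 0.221; BHB 0.18 ± 0.16, adjusted p = 0.587). Atp5md, a small accessory subunit also called DAPIT, had 21.9, 22.1, 21.7 and 19.9 in normal, 24.9, 24.1, 41.2 and 34.1 in K and 24.9, 21.3, 15.4 and 20.8 in BHB. It had the smallest p of the complex for any arm (K 0.54 ± 0.18; adjusted p = 0.221; K minus BHB 0.59 ± 0.18, adjusted p = 0.53). Without the 4 libraries the K difference was 0.14 for Atp5k and 0.20 for Atp5md. Atp5md overlaps Taf5 on the opposite strand, whose own K difference was -0.041.

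Reads of near-identical copies may be split in such counts. A copy with at least 95% identity over 50% of the transcript was found for 16 members, among them 9 for Atp5l, whose copies together held 6.93% of its own counts. The entry Cox6c2 is such a copy of Cox6c and held 100 counts against 21343. Exons of 25 members overlap another gene on the opposite strand.

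Lists of assembly factors had medians nearer to that of all genes than the members had, in K and in BHB. K 3 was still the highest litter in the mean log2 CPM of every assembly list. For complex I factors it had 4.32, against 3.99 to 4.10 in normal, and for complex IV factors 3.87, against 3.52 to 3.61. No gene of the pathway lists passed the adjusted threshold. Of 15 complex I assembly factors, 10 were higher in K (median 0.051) and 6 in BHB (-0.066). Ndufaf7 and Ndufaf6, which act early in complex I assembly, had K differences of 0.23 ± 0.11 and 0.35 ± 0.20. Of 4 complex II assembly factors, 2 were higher in K (median 0.029) and 2 in BHB (-0.026), with Sdhaf2, which helps attach the flavin to Sdha, at -0.19 ± 0.085 and Sdhaf4 at -0.026 ± 0.20 in K. Complex III factors were 5 of 6 higher in K (median 0.098) and 3 of 6 in BHB (0.014), with Ttc19 at 0.11 ± 0.094 and Uqcc1 at 0.17 ± 0.11 in K. Complex IV factors were 14 of 21 higher in K (median 0.15) and 10 of 21 in BHB (-0.021); Cox15, needed for heme A, had 0.21 ± 0.11 and Coa5 0.33 ± 0.16 in K. Complex V factors were 4 of 4 higher in both arms (0.18 and 0.051), with Tmem70, which supports ATP synthase assembly, at 0.36 ± 0.12 and Atpaf1 at 0.29 ± 0.14 in K.

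Subunits and carriers outside the name rule followed the members: Ndufab1, Cyc1 and Cycs were 3 of 3 higher in K (median 0.40) and in BHB (0.15). Cyc1, the cytochrome c1 of complex III, had 68.1 to 76.0 CPM in normal, 70.5, 59.3, 144.5 and 127.2 in K and 107.5, 96.2, 78.0 and 81.3 in BHB, with K 3, K 4, BHB 1 and BHB 2 on top as for Uqcrc1. Ndufab1, the acyl carrier protein, had a K difference of 0.26 ± 0.16. Regulators of mitochondrial biogenesis were 7 of 16 higher in both K (median -0.015) and BHB (-0.068). Their mean log2 CPM, however, was 5.16 to 5.41 in normal and 5.53, 5.29, 5.88 and 5.83 in K 1 to 4. In BHB 1 to 4 it was 5.70, 5.72, 5.36 and 5.19. By this mean K 3, K 4, BHB 1 and BHB 2 were the highest litters, as for the members. Twnk, the helicase that replicates mitochondrial DNA, was -0.36 ± 0.097 in K (adjusted p = 0.221), with 56.6 to 68.2 CPM in normal and 54.2, 52.9, 47.5 and 41.0 in K. Gabpa, an ETS factor, was 0.039 ± 0.069 in K and -0.16 ± 0.069 in BHB.

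The 13 mitochondrially encoded subunits had another order of litters than the nuclear ones. All 13 were higher in K (median 0.38) and 7 of 13 in BHB (median 0.12). The K litters lay above all normal ones for 5 of the 13, against 4.87% of all genes. In K minus BHB, 13 of 13 were higher (median 0.46). There the K litters lay above all BHB ones for 6 of the 13, against 1.76% of all genes. Their summed CPM was 7789 to 11980 in normal, 11900 to 14720 in K and 8573 to 11110 in BHB. mt-Nd6, the complex I subunit on the light strand of mitochondrial DNA, had 146.7, 144.7, 161.9 and 218.4 CPM in normal, 315.5, 358.1, 414.7 and 377.5 in K and 267.4, 231.3, 181.9 and 222.4 in BHB (K 1.13 ± 0.15, adjusted p = 0.103). mt-Atp8, a complex V subunit, had 102.7, 111.5, 165.1 and 188.7 in normal, 241.7, 241.6, 231.5 and 209.0 in K and 113.3, 116.6, 89.1 and 138.7 in BHB (K 0.70 ± 0.19, adjusted p = 0.221). K 1 and K 2, which lay near normal for the nuclear subunits, were thus above every normal litter for both of these genes.

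**Figure D5:**
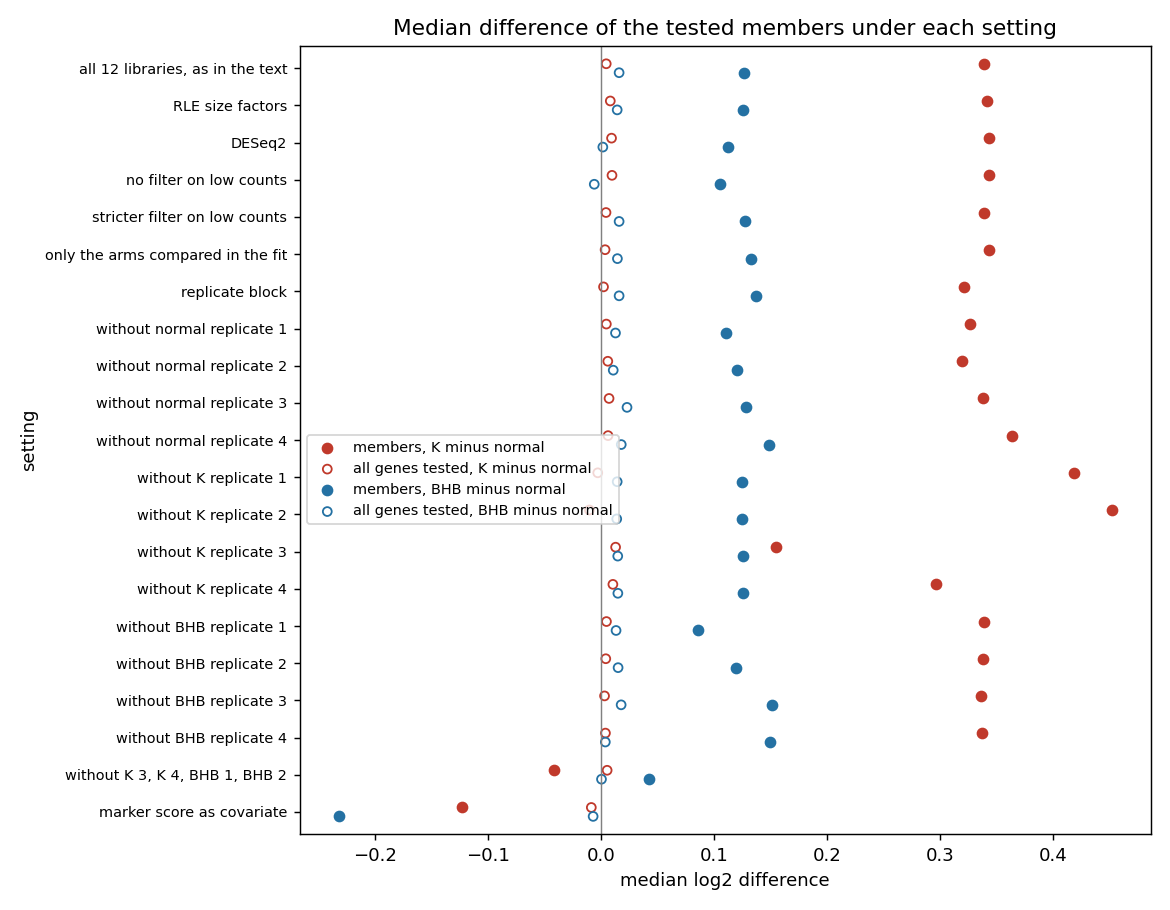
Filled points give the median log2 difference of the tested subunits and open points that of all genes tested, for K and BHB minus normal, under each setting. The K median stays between 0.30 and 0.45 except without K 3 (0.16), without K 3, K 4, BHB 1 and BHB 2 (-0.041) and with the marker score as a covariate (-0.12).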

How the data were processed

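RNA of sorted cells was sequenced with a stranded total RNA kit, per the labels' protocols. The deposited values are raw counts of every gene, side by side with the authors' normalized signal, in which counts are divided by a size factor per library; that signal entered no test. The submitters' processing notes name HTSeq 2.01, TopHat2 2.1.1, DESeq2 1.36.0 and cutadapt 2.10, without saying what each did. Genome build, annotation and strand setting: not given in the sources used here. Of 55414 entries, 6250 had blank counts and were left out; every sample column was mapped.

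The deposited counts were analysed in R 4.3.3 with edgeR 4.0.16: filterByExpr at its defaults (a count of about 10, a total of 15), TMM factors, and the robust quasi-likelihood test in 1 model of all 12 libraries with a mean per arm (9 residual degrees of freedom), with Benjamini-Hochberg adjustment over 17697 genes. The script was tested on simulated counts. List levels are mean log2 CPM with a prior count of 2. Alternatives were RLE size factors, DESeq2 1.42.0, other filters, only the arms compared, a replicate block and each library left out; 3 more were chosen after seeing the data. Lengths, overlaps and copies (blastn 2.17.0) came from GENCODE M21, and promoters from RefSeq. No libraries of an arm agreed within sampling noise (smallest chi-square per gene 4.67). Replicates are litters, so p-values measure the spread between litters; intervals and limits from counts cover counting error only.

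Same-numbered normal and K litters deviated together (correlations 0.11, 0.46, 0.34 and 0.24), so the blocked value is printed for that pair; other pairs such as normal 2 with K 1 reached 0.46 as well. For normal and BHB the correlations were -0.0096, -0.0084, -0.26 and 0.10, and for K and BHB all were negative. The labels do not say what a number marks.

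Named members are the isoform groups, core subunits, the smallest p for any arm per complex, the extreme differences in K and BHB, and members whose litters do not overlap (all are listed by name); from each pathway list the 2 with the smallest p for any arm are named. Overlapping genes are given beside Ndufb1, Ndufb2, Ndufa4l2, Cox4i1 and Atp5md only. Other named members overlap genes on the opposite strand too, such as Ndufs1 with Ino80dos, Ndufs3 with Kbtbd4, Cox5a with Gm26631 and Atp5a1 with Haus1. The overlapping genes given, and Six2, which marks the sort, were chosen after values were seen. The members and lists were chosen with earlier results of these data known. The values of 1 member are not reported here; it stays in the counts and medians.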

Additional observations from a re-analysis of the deposited data

Results flagged for a closer look

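In 6 of 237 groups of 4 litters, 1 litter lay farther from the nearest other than Dixon's 95% limit allows, while chance flags about 1 group in 20. Of these, 5 were normal litters. Ndufb11 was high in normal 4 (58.96 CPM), Sdhc in normal 4 (68.98 CPM), Ndufb6 in normal 3 (19.34 CPM) and Uqcr10 in normal 1 (22.45 CPM), and Cox4i1 was low in normal 3 (160.9 CPM). In the K arm, Ndufc2 was high in K 3 (47.42 CPM), while the other 3 K litters lay between 34.9 and 35.3 CPM; without K 3 its K minus normal difference was 0.32, with an adjusted p of 0.478 by edgeR.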

How the results depend on the processing

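No member passed the adjusted threshold in edgeR under any setting run; DESeq2 called 1 in K minus normal and 1 for any arm, both Ndufc2. Over all genes edgeR called 0 in each comparison, while DESeq2 called 216 in K minus normal, 84 in BHB minus normal, 9 in K minus BHB, 197 in treated minus normal and 93 for any arm; with no filter on low counts edgeR called 2, 2, 0, 4 and 5. With each library left out, the median log2 difference of the members ran from 0.1552 to 0.4522 in K, from 0.0858 to 0.1517 in BHB and from 0.1509 to 0.2993 in both treated arms against normal. With the marker score as a covariate, chosen after seeing the data and overlapping little between treated and normal litters, these medians were -0.1235, -0.2324 and -0.1942. Without K 3, K 4, BHB 1 and BHB 2, also chosen after seeing the data, they were -0.0413, 0.0427 and 0.0036, with 12, 5 and 0 genes called. In K minus normal 62 and 52 of 79 members changed sign under these settings, in that order; the cause was not tested. With the replicate block in all 12 libraries the K median was 0.3209 and 0 members were called; in K and normal alone, a fit chosen after seeing the data, it was 0.3057, with 391 genes and 0 members called. The pairing with normal changed no call of a member. Depth limits the rare isoforms, such as Cox4i2 with 204 counts in all.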
